A study of Mus musculus with 12 samples.

Results

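Epithelial and mesenchymal cells differ in a small set of well-known genes, and 10 of these were followed in mESCs, which are mouse embryonic stem cells, and in NIH3T3 fibroblasts: Cdh1 and Epcam for the epithelial state, and Cdh2, Vim, Snai1, Snai2, Zeb1, Zeb2, Twist1 and Prrx1 for the mesenchymal state. They were chosen by gene symbol, and all 10 were found among the 21923 genes with a protein-coding transcript in both RNA-seq tables. mESCs of the E14 line (E14TG2a) are pluripotent cells of the early mouse embryo, and NIH3T3 is an established line of mouse fibroblasts. Both were grown in the same medium, with serum and LIF, a cytokine that keeps mESCs undifferentiated. For Ctr9 ChIP-seq, both lines carried a GFP knock-in at the end of the Ctr9 gene, and the sorted GFP-positive cells were used as a pool, not as clones. For NELFA ChIP-seq, the mESCs carried GFP-tagged NELFA, and RNAPII Ser5p was profiled in the same tagged cells. Whether the H3K27ac, RNAPII Ser2p and RNA libraries came from tagged cells is not given in the sources used here.

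Epithelial cells form sheets held together by adhesion molecules. Cdh1 encodes E-cadherin, the calcium-dependent adhesion protein of epithelial junctions and of the early embryo, and Epcam encodes a homophilic epithelial adhesion molecule. In an epithelial to mesenchymal transition, transcription factors of the SNAI, ZEB and TWIST families repress Cdh1 by binding short DNA sites called E-boxes, and cells gain N-cadherin (Cdh2) and the intermediate filament vimentin (Vim). Prrx1 encodes a homeodomain factor of the embryonic mesenchyme. Ctr9 is a subunit of the Paf1 complex, which travels with RNA polymerase II (RNAPII) during elongation. NELFA belongs to the complex that holds RNAPII in a pause near the start of genes. RNAPII is phosphorylated on serine 5 of its tail (Ser5p) early in transcription and on serine 2 (Ser2p) during elongation, and acetylation of histone H3 at lysine 27 (H3K27ac) marks active promoters and enhancers.

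Each RNA-seq table came from 1 library, with 26400407 estimated counts in mESCs and 28849497 in NIH3T3 cells, and each of the 7 peak lists came from 1 library, with 1675 (Ser2p) to 44748 (Ctr9, mESC) peaks. No library had a replicate, so no difference between the lines was tested, and every interval below is a 95% interval that covers counting error only. Peak lists carry no reads, which leaves the ChIP-seq depth unknown, and fold enrichments of different libraries are given side by side. The median fold enrichment of a list was 3.97 for H3K27ac in mESCs and 6.75 in NIH3T3 cells, and 3.71 and 4.27 for Ctr9. The same value therefore stands differently in each list. The lines matched their labels: all 8 pluripotency markers were higher in mESCs, with a summed level of 2746 against 26.9 TPM (a transcript level corrected for its length and the library size). Klf4 made up 26.3 TPM of the NIH3T3 sum and had 89.7 TPM in mESCs. Of the 8 markers, 5 were listed at 0 in NIH3T3 cells: Pou5f1, Sox2, Esrrb, Zfp42 and Dppa3. Dppa3 rested on 15 counts in mESCs. All 8 fibroblast markers were higher in NIH3T3 cells, with a summed level of 6095 against 85.4 TPM. Of these, Fn1 made up 75.7 TPM of the mESC sum, and Col3a1 was listed at 0 in mESCs. Markers of other cell types that an mESC culture could hold were low for mesendoderm (summed level 2.38 TPM in mESCs and 0.209 TPM in NIH3T3 cells) and for trophectoderm (8.34 and 0.232 TPM). The primitive endoderm markers summed to 238 TPM in mESCs and 794 TPM in NIH3T3 cells, of which Sparc, also a fibroblast gene, made up 187 and 766 TPM. By the 2-fold rule given below, 3 of these markers were higher in NIH3T3 cells, Sparc among them, and 2 in mESCs. The latter were Lama1 (41.4 TPM in mESCs and 0 in NIH3T3 cells) and Sox7 (6.04 and 0.0146 TPM). The part of such cells in the mESC levels below was not tested, and in bulk RNA a smaller number of expressing cells and less RNA per cell cannot be told apart.

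To compare mRNA levels, the transcript of highest TPM stood for each gene, and a gene was called higher in 1 line when TPM + 1 differed at least 2-fold. Among 12384 genes with at least 1 TPM in either line, 20.0% were higher in NIH3T3 cells and 23.9% in mESCs by this rule. All 10 genes passed the 1 TPM limit. Both epithelial genes were called higher in mESCs, and the 8 mesenchymal genes were called higher in NIH3T3 cells. The median log2 difference (NIH3T3 minus mESC) of the 8 mesenchymal genes was 3.34 on the log2(TPM + 1) scale, with a range of 2.35 to 7.43, against -0.13 for all genes tested. A log2 difference equal to that of a 10-fold change or more was found for 3.47% of all genes in the direction of NIH3T3 cells and 3.59% in the direction of mESCs.

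**Figure D1:**
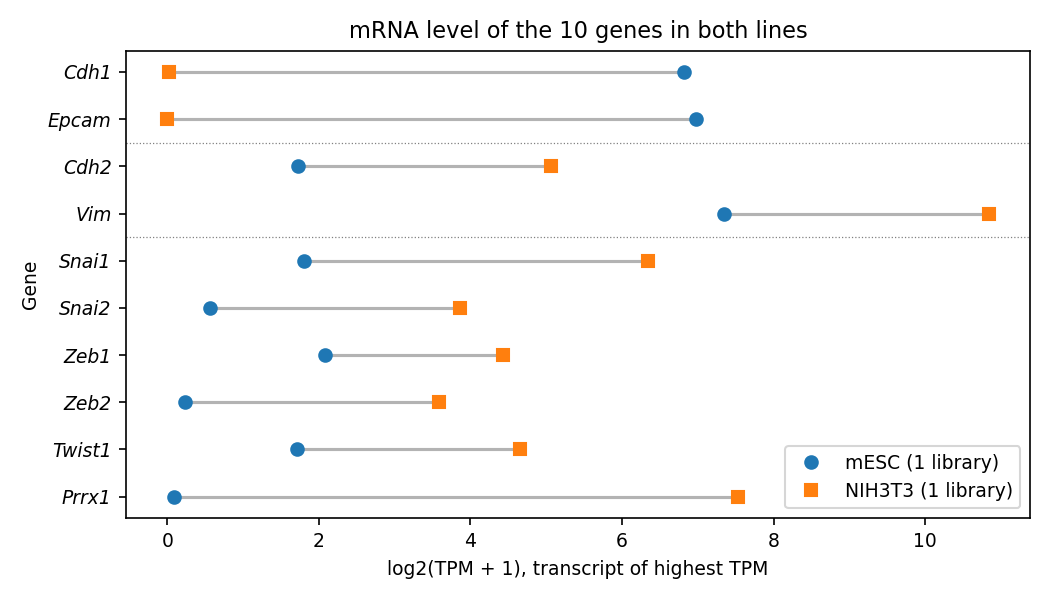
Level of each gene, as log2(TPM + 1) of its transcript of highest TPM, in mESCs (circles) and NIH3T3 cells (squares), with 1 library per point and no error bar. The lines exchange sides between the 2 epithelial genes at the top and the 8 mesenchymal genes below, and Vim is the gene with the highest level in both lines.

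Cdh1 (ENSMUSG00000000303, mm10 chr8:106603351-106670246, plus strand) stood at 112 TPM in mESCs, from 9519 estimated counts, and at 0.0148 TPM in NIH3T3 cells, from 1 count (95% exact Poisson interval, 0.0253 to 5.57 counts). mESCs therefore held the gene in the upper part of the range, above 96.2% of all genes, and NIH3T3 cells hardly at all. Relative to the library totals, the level in mESCs was 10402-fold that of NIH3T3 cells, and since it rests on 1 count the exact interval of this ratio ran from 1867 to 410902. In mESCs all counts fell on Cdh1-201, and the 1 count in NIH3T3 cells fell on Cdh1-203, both protein-coding transcripts.

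Epcam (ENSMUSG00000045394, mm10 chr17:87635979-87651129, plus strand) stood at 125 TPM in mESCs, from 4885 counts, and was listed at 0 in NIH3T3 cells. The exact interval of this count of 0 ran up to 3.69 counts. By the lower end of the exact interval of the ratio, Epcam was at least 1447-fold higher in mESCs relative to the library totals. With the count of 0 set to the less strict limit of 3 counts, the bound was 1779-fold. By the log2 difference of TPM + 1, Epcam ranked 32 and Cdh1 37 among the 12384 genes in the direction of mESCs. Changes of this size, equal to 100-fold or more on that scale, were found for 0.331% of all genes.

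Among the mesenchymal structural genes, Vim (ENSMUSG00000026728, mm10 chr2:13573927-13582826, plus strand) was abundant in both lines. Its counts were 5560 in mESCs and 74133 in NIH3T3 cells, a 12.2-fold difference relative to the library totals (95% exact interval, 11.9 to 12.5). The level of its top transcript was 162 TPM in mESCs, above 97.6% of all genes, and 1829 TPM in NIH3T3 cells, above 99.7%. A mesenchymal filament gene was thus among the more abundant mRNAs of mESCs as well, at a level per length above those of Cdh1 and Epcam in the same cells. With only protein-coding transcripts considered, the top transcript of Vim had 109 TPM in mESCs and 1387 TPM in NIH3T3 cells. In mESCs it then lay a little below Cdh1 (112 TPM) and Epcam (125 TPM), so the order of the 3 depends on the transcripts considered. Cdh2 (ENSMUSG00000024304, chromosome 18, minus strand, 220.4 kb long) had 2.29 TPM in mESCs and 32.4 TPM in NIH3T3 cells in its top transcript, and 169 and 3127 counts over all its transcripts. The ratio of these gene totals relative to the library totals, used for all ratios below, was 16.9 (14.5 to 19.9). NIH3T3 cells thus had more Cdh2 than Cdh1, and mESCs more Cdh1 than Cdh2.

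The 6 transcription factors together summed to 8.69 TPM in mESCs and 332 TPM in NIH3T3 cells. Snai1 (ENSMUSG00000042821, mm10 chr2:167538195-167542814, plus strand), a zinc finger repressor of Cdh1, had 2.49 TPM from 89 counts in mESCs and 80.0 TPM from 3068 counts in NIH3T3 cells. This was a ratio of 31.5 (25.5 to 39.4). Its relative Snai2, also known as Slug (ENSMUSG00000022676, mm10 chr16:14705852-14709385, plus strand), had 0.477 TPM from 15 counts and 13.5 TPM from 457 counts, a ratio of 27.9 (16.7 to 50.2). The intervals of the ratios of Snai1 and Snai2 overlapped, while the level of Snai1 was above that of Snai2 in each line.

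Zeb1 and Zeb2 encode large zinc finger and homeobox repressors that bind the same kind of E-box. Zeb1 (ENSMUSG00000024238, chromosome 18, plus strand, 184 kb long) had 3.22 TPM in mESCs and 20.5 TPM in NIH3T3 cells in its top transcript, and gene totals of 387 and 2732 counts, a ratio of 6.46 (5.81 to 7.20). This was the smallest difference among the 10 genes, and Zeb1 had the highest mESC level of the 6 transcription factors. Zeb2 (ENSMUSG00000026872, mm10 chr2:44983632-45117395, minus strand) had 0.180 TPM and 11 TPM, in different top transcripts, and gene totals of 27 and 1773 counts, a ratio of 60.1 (41.2 to 91.4). The intervals of the 2 ratios did not overlap, so that counting error does not cover the gap between the 2 paralogs in these libraries.

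Twist1 (ENSMUSG00000035799, mm10 chr12:33957671-33959829, plus strand), a basic helix-loop-helix factor, had 2.26 TPM from 70 counts in mESCs and 24.2 TPM from 808 counts in NIH3T3 cells, a ratio of 10.6 (8.27 to 13.7). Prrx1 (ENSMUSG00000026586, mm10 chr1:163245119-163313710, minus strand) had 0.0669 TPM in mESCs and 183 TPM in NIH3T3 cells, in different top transcripts, and gene totals of 8 and 32402 counts. Its ratio of 3940 (1881 to 8586) was the largest of the mesenchymal genes, and its log2 difference of 7.43 ranked 28 among all genes in the direction of NIH3T3 cells, where 0.371% of genes reached that of a 100-fold change. By the top transcript, the order of levels in NIH3T3 cells was Vim, Prrx1, Snai1, Cdh2, Twist1, Zeb1, Snai2 and Zeb2, and in mESCs it was Vim, Epcam, Cdh1, Zeb1, Snai1, Cdh2, Twist1, Snai2, Zeb2 and Prrx1. With all transcripts summed, Zeb1 (36.5 TPM) lay above Twist1 (24.2 TPM) and Zeb2 (18.1 TPM) above Snai2 (13.5 TPM) in NIH3T3 cells, and Cdh2 (2.52 TPM) above Snai1 (2.49 TPM) in mESCs. With protein-coding transcripts only, Vim lay below Epcam and Cdh1 in mESCs. The top-transcript mESC levels of Snai1 (2.49 TPM), Cdh2 (2.29 TPM) and Twist1 (2.26 TPM) lie close together, and with 1 library their order cannot be set against a replicate spread. Of the 10 genes, 7 had at least 1 TPM in mESCs and 8 in NIH3T3 cells.

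Because a gene was represented by 1 transcript, the transcripts behind the values were compared. For Vim, the transcript of highest TPM was Vim-203, a 535-base retained-intron transcript, in both lines. It held 53.3% of the TPM but 17.6% of the counts in mESCs, and 50.4% of the TPM but 15.8% of the counts in NIH3T3 cells. Most Vim counts fell on the protein-coding Vim-206 (58.8% and 60.0%) and Vim-201 (23.4% and 23.7%). The makeup of Vim by transcript was therefore nearly the same in mESCs and NIH3T3 cells, although the total differed.

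For Prrx1 in NIH3T3 cells, the processed transcript Prrx1-205 (183 TPM, 13.7% of counts) and the protein-coding Prrx1-201 (182 TPM, 58.7% of counts) had nearly equal levels, followed by Prrx1-202 (42.4 TPM) and Prrx1-204 (32.2 TPM). With all transcripts summed, Prrx1 reached 439 TPM in NIH3T3 cells and 0.0748 TPM in mESCs. For Zeb2, 29 transcripts were listed and 11 were above 0 in NIH3T3 cells, where Zeb2-201 held 59.8%, Zeb2-212 28.8% and Zeb2-214 10.1% of the counts. In mESCs the 27 counts were spread over 4 transcripts, with 44.6% on Zeb2-203 and none on Zeb2-201. These mESC shares rest on too few counts to be read as an isoform difference.

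For Zeb1 the protein-coding Zeb1-201 took 85.5% of the counts in mESCs and 84.0% in NIH3T3 cells. For Cdh2 the share of Cdh2-202 was 87.7% and 73.0%, with the rest on Cdh2-201. Estimated counts of transcripts that share exons are divided by a model, so these shares carry an error that the tables do not give.

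**Figure D2:**
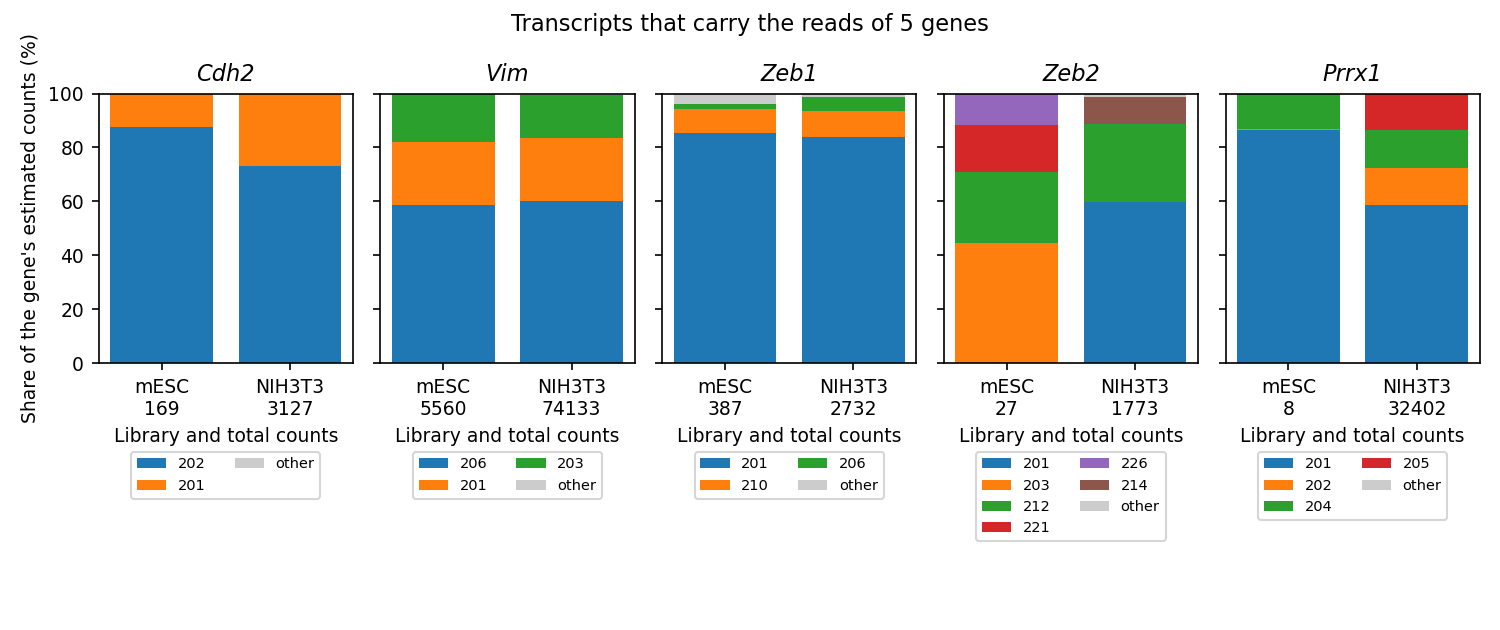
Share of each gene's estimated counts (%) by transcript, for 5 genes with several transcripts above 0, in mESCs and NIH3T3 cells. The number under each bar is the gene's total count and the number in each legend is the transcript's suffix. Vim and Zeb1 have like shares in both lines, and the mESC bars of Zeb2 and Prrx1 rest on 27 and 8 counts.

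Genes that overlap a member or its flanks were low. The antisense transcript Zeb2os, which lies within Zeb2 on the other strand, was listed at 0 in mESCs and had 1.82 TPM in NIH3T3 cells, where Zeb2 had 11 TPM. Within Prrx1, Gm26523 and Gm37644 lie on the same strand and had 0.974 and 0.629 TPM in NIH3T3 cells, and the antisense Gm20471 was listed at 0 in both lines. Gm11474, next to Snai1, had 1.19 TPM in NIH3T3 cells and 0 in mESCs, and Gm10125, within Zeb1, had 0.590 TPM in mESCs and 0.457 TPM in NIH3T3 cells. The RNA libraries were strand-specific, but whether the strand entered the quantification is not given in the sources used here, so reads of antisense partners may not have been told apart.

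Next, lists of 35 other epithelial and 35 other mesenchymal genes were read in the same way. Of the epithelial list, 30 genes passed the 1 TPM limit. Among these, 29 were higher in mESCs (23.9% of all genes tested), 0 in NIH3T3 cells (20.0%) and 1 in neither. The median log2 difference was -3.12, and 21 of the 35 were listed at 0 in NIH3T3 cells. Of the list, 30 genes had at least 1 TPM in mESCs and 2 in NIH3T3 cells. Most of them thus passed the limit only through mESCs, which nearly fixes the direction of this count. The 5 genes with the largest differences were Spint2, an inhibitor of membrane serine proteases (145 TPM in mESCs and 0.110 TPM in NIH3T3 cells), Cldn4, a tight junction claudin (56.0 TPM), Perp, a desmosome-associated membrane protein (54.2 TPM), Krt8, a keratin of simple epithelia (39.2 TPM), and Ap1m2, the epithelial adaptor subunit of basolateral sorting (26.9 TPM). The last 4 were listed at 0 in NIH3T3 cells. Cdh1 and Epcam differed in the same direction as these genes, but a list that passed mainly through mESCs gives no separate support for them.

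Of the mesenchymal list, 31 genes passed the limit. Among these, 26 were higher in NIH3T3 cells (20.0% of all genes tested), 2 in mESCs (23.9%) and 3 in neither. The median log2 difference was 3.50, beside 3.34 for the 8 mesenchymal genes above. Of the list, 29 genes had at least 1 TPM in NIH3T3 cells and 17 in mESCs, so part of them passed only through NIH3T3 cells. Among the 8 mesenchymal genes, Snai2, Zeb2 and Prrx1 did so too. The limit thus moves both medians in the same direction, and the list gives no separate support for the 8 genes. Large differences were those of S100a4, a calcium-binding protein of fibroblasts (0.737 TPM in mESCs and 3337 TPM in NIH3T3 cells), Lox, a collagen cross-linking oxidase (0.0299 and 716 TPM), Axl, a receptor tyrosine kinase (0.742 and 242 TPM), and Cd44, the hyaluronan receptor (0.0472 and 68.3 TPM). The mESC levels of S100a4, Lox and Cd44 rest on 4 counts, 2 counts and 1 count. The 2 genes higher in mESCs were Loxl2, a relative of Lox (25.6 TPM in mESCs and 0.0318 TPM in NIH3T3 cells), and the integrin subunit Itgb3 (2.48 and 0.684 TPM). The list shares Fn1, Thy1, Pdgfrb and S100a4 with the fibroblast markers, so the 2 counts are not independent.

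**Figure D3:**
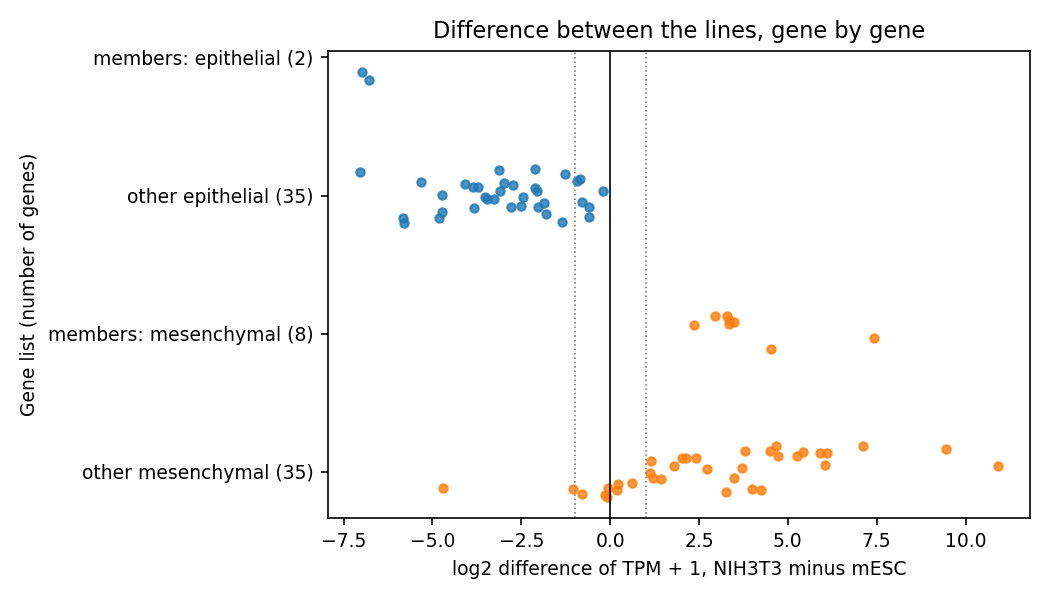
Log2 difference of TPM + 1 (NIH3T3 minus mESC) for each gene of 4 lists, 1 point per gene, with genes under the 1 TPM limit included and points spread vertically for visibility. Dotted lines mark a 2-fold difference. No epithelial gene lies to the right of 0, while 6 mesenchymal genes, Loxl2 furthest, lie to the left.

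To ask whether these mRNA differences were accompanied by chromatin marks, peaks over each gene body and 5 kb on each side were collected from the 7 lists. In mESCs, Ctr9 peaks were present at 4 of the 10 genes (Cdh1, Epcam, Vim and Zeb1; 45.6% of all protein-coding genes), an H3K27ac peak at 3 (Cdh1, Vim and Zeb1; 44.5%), a NELFA peak at Epcam alone (10.9%), a Ser5p peak at Cdh1 and Vim (13.5%) and a Ser2p peak at none (7.54%). In NIH3T3 cells, a Ctr9 peak was found at 3 genes (Vim, Zeb1 and Prrx1; 26.9%) and an H3K27ac peak at 9, all but Epcam (56.0%). The 6 genes without any mESC peak were Cdh2, Snai1, Snai2, Zeb2, Twist1 and Prrx1, which were also the 6 with the lowest mESC levels. The windows ran from 12.2 kb (Twist1) to 230.4 kb (Cdh2), so longer genes had more room for a peak.

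The share of genes with a peak also differs by expression, so genes of like level are the closer background. The 3 genes with at least 100 TPM in mESCs were Cdh1, Epcam and Vim. All 3 had a Ctr9 peak (95.2% of all mESC genes at that level), 2 had H3K27ac (92.5%), 2 had Ser5p (58.4%), 1 had NELFA (44.9%) and 0 had Ser2p (41.3%). In NIH3T3 cells the 8 mesenchymal genes had at least 10 TPM, and 8 of 8 had H3K27ac (97.5% of genes at that level) while 3 of 8 had Ctr9 (58.0%). Between the lines, 6 genes had H3K27ac in NIH3T3 cells only (16.0% of all genes), 1 gene, Prrx1, had Ctr9 in NIH3T3 cells only (3.32%), and 2 genes, Cdh1 and Epcam, had Ctr9 in mESCs only (22.0%). With 3 or 8 genes, the shares at like level say little of this set of genes. The shares between the lines were set against all genes only. The 6 of 10 genes with H3K27ac in NIH3T3 cells only are above the 16.0%, and the part of mRNA level in this was not tested.

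**Figure D4:**
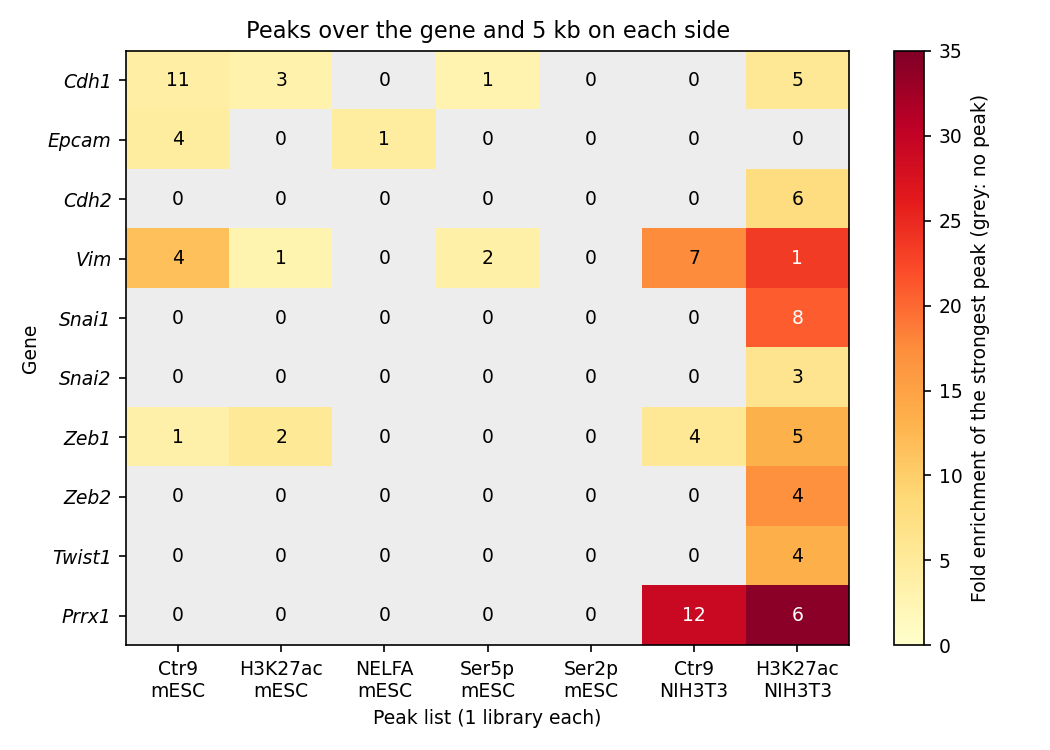
Number of peaks (digits) over each gene and 5 kb on each side in the 7 peak lists, with the fold enrichment of the strongest peak as colour and grey for no peak. The H3K27ac column of NIH3T3 cells is filled for 9 of 10 genes, and the Ser2p column is empty.

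The regions shown next are those where a peak or a motif could be read at base level. RefSeq promoters (GRCm38.p6, 250 bases before to 50 after a start) matched 6 of the 10 genes with 9 promoters. Cdh1, Cdh2, Snai2 and Zeb1 had no promoter among them, so the promoters of these genes were not searched for the motif. The E-box CAGGTG, which reads CACCTG on the other strand and is a case of the broader CANNTG, was counted on both strands. CAGGTG was found in 2 of the 9 promoters, Epcam and Snai1, against 20.2% of 32851 promoters, and CANNTG in the same 2 of 9, against 72.3%. The 9 promoters are not separate, since 4 belong to Zeb2 and some of these overlap, and by gene both counts are 2 of 6. Epcam held CACCTG starting 187 bases and CAGGTG starting 19 bases before its start, and Snai1 held CACCTG starting 126 bases before its start. A match is a string of letters, not evidence of binding. The promoters of Epcam (chr17:87635729-87635978, plus strand) and Snai1 (chr2:167537945-167538194, plus strand), the 250 bases before each start, are printed 5′ to 3′ with this motif in capitals.
Epcam promoter: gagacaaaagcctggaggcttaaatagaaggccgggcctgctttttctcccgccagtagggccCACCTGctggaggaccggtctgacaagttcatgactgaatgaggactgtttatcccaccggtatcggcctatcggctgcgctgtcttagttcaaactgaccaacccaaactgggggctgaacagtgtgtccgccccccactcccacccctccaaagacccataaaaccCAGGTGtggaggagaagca
Snai1 promoter: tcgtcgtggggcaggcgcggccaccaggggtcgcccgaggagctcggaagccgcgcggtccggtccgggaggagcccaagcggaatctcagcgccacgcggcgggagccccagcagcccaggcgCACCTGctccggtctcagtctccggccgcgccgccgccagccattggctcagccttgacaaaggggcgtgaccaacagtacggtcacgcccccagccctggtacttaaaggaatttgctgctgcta
The only NELFA peak of the set, at Epcam, had its summit 16 bases before the start, inside the CAGGTG of these printed bases. The Snai1 sequence was the richest in G and C of the 9 promoters (70.0% over its 300 bases, with 34 CG pairs), followed by Twist1 (66.0%, 27 CG pairs), against a median of 52.7% and 7 CG pairs over all promoters. Prrx1 had 47.7% and 6 CG pairs.

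The bases under the strongest H3K27ac summit of NIH3T3 cells are shown for 3 mesenchymal genes without CAGGTG, 300 bases centred on the summit, read along the gene's strand: Prrx1 (mm10 chr1:163311985-163312284, minus strand), Twist1 (mm10 chr12:33957032-33957331, plus strand) and Vim (mm10 chr2:13572836-13573135, plus strand).
Prrx1 summit: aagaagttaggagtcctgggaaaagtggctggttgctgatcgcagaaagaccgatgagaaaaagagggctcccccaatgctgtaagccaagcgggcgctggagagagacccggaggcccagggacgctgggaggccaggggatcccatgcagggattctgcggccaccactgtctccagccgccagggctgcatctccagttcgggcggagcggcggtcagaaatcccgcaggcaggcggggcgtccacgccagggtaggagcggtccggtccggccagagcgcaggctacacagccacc
Twist1 summit: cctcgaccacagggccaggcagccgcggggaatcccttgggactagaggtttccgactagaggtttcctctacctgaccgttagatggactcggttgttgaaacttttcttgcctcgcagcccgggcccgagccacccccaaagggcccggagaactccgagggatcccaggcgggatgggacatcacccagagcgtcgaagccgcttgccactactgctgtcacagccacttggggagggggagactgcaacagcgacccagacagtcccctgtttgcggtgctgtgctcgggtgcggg
Vim summit: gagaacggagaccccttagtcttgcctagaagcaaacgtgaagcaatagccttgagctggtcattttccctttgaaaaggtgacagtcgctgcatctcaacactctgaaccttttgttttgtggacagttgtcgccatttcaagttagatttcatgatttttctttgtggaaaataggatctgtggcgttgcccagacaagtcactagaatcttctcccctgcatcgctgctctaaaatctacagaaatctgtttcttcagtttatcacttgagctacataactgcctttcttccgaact
None of the 3 overlaps an annotated exon. Their GC content was 65.3% for Prrx1, with 20 CG pairs, 63.3% for Twist1, with 19, and 43.0% for Vim, with 7. None of the windows at the strongest summit of the 9 genes with an H3K27ac peak in NIH3T3 cells held CAGGTG, and 18.8% of all 34215 such windows did. At least 1 CANNTG was found at Cdh1, Cdh2, Vim, Snai2, Zeb2 and Twist1, and 71.3% of all windows held one.

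Cdh1 carried 11 Ctr9 peaks in mESCs, with fold enrichments of 2.19 to 4.06. None lay near the start. The nearest summit was 8.52 kb inside the gene, 9 of the 11 lay in introns between 8.52 and 23.1 kb, with the strongest at 17.0 kb, 1 lay in an exon at 55.0 kb, and 1 lay 1086 bps past the gene end. H3K27ac in mESCs had a weak peak 234 bps after the start (fold enrichment 2.52) and a pair of intronic peaks at 16.2 kb (3.20, −log10 q of 27.5) and 16.6 kb (2.90). The only Ser5p peak of the gene also lay there, at 16.5 kb (2.93). It was a weak one, with a −log10 q of 2.84 and rank 4376 of 4490 Ser5p peaks by fold enrichment. Ctr9, H3K27ac and Ser5p peaks thus met in the same intronic stretch about 16 to 17 kb into Cdh1, away from its promoter.

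In NIH3T3 cells, where Cdh1 mRNA rested on 1 count, the gene had no Ctr9 peak (the nearest was 197 kb away) but 5 intronic H3K27ac peaks. Their summits lay at 16.6, 19.8, 20.6, 22.6 and 52.6 kb, and none lay within 5 kb of the start. Their fold enrichments of 3.42 to 5.39 were all under the list median of 6.75, as those of the mESC H3K27ac peaks were under theirs of 3.97. The peak at 16.6 kb had its summit 16630 bases from the start, beside an mESC summit at 16634 bases. Of the 5 peaks, 3 overlapped Ctr9 peaks of mESCs. An H3K27ac peak over a gene under 0.1 TPM was found for 13.9% of such genes in NIH3T3 cells, and for 8 of the 32 genes (25.0%) that had at least 100 TPM in mESCs and under 0.1 TPM in NIH3T3 cells, Cdh1 among them.

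Epcam, with a like mRNA level in mESCs, had a different set of peaks. The NELFA peak over its start (fold enrichment 4.49) was followed by a Ctr9 peak with its summit 411 bps after the start (4.36), and the 2 did not overlap. A further 3 Ctr9 peaks lay 371, 781 and 1670 bps past the gene end, with fold enrichments of 3.45 to 4.38. No H3K27ac peak was called, and the nearest lay 21.4 kb away. Among genes with at least 100 TPM in mESCs, 7.52% (68 of 904) had no H3K27ac peak in this window. In NIH3T3 cells Epcam had no peak of either kind, with the nearest Ctr9 peak 21.8 kb and the nearest H3K27ac peak 21.4 kb away.

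**Figure D5:**
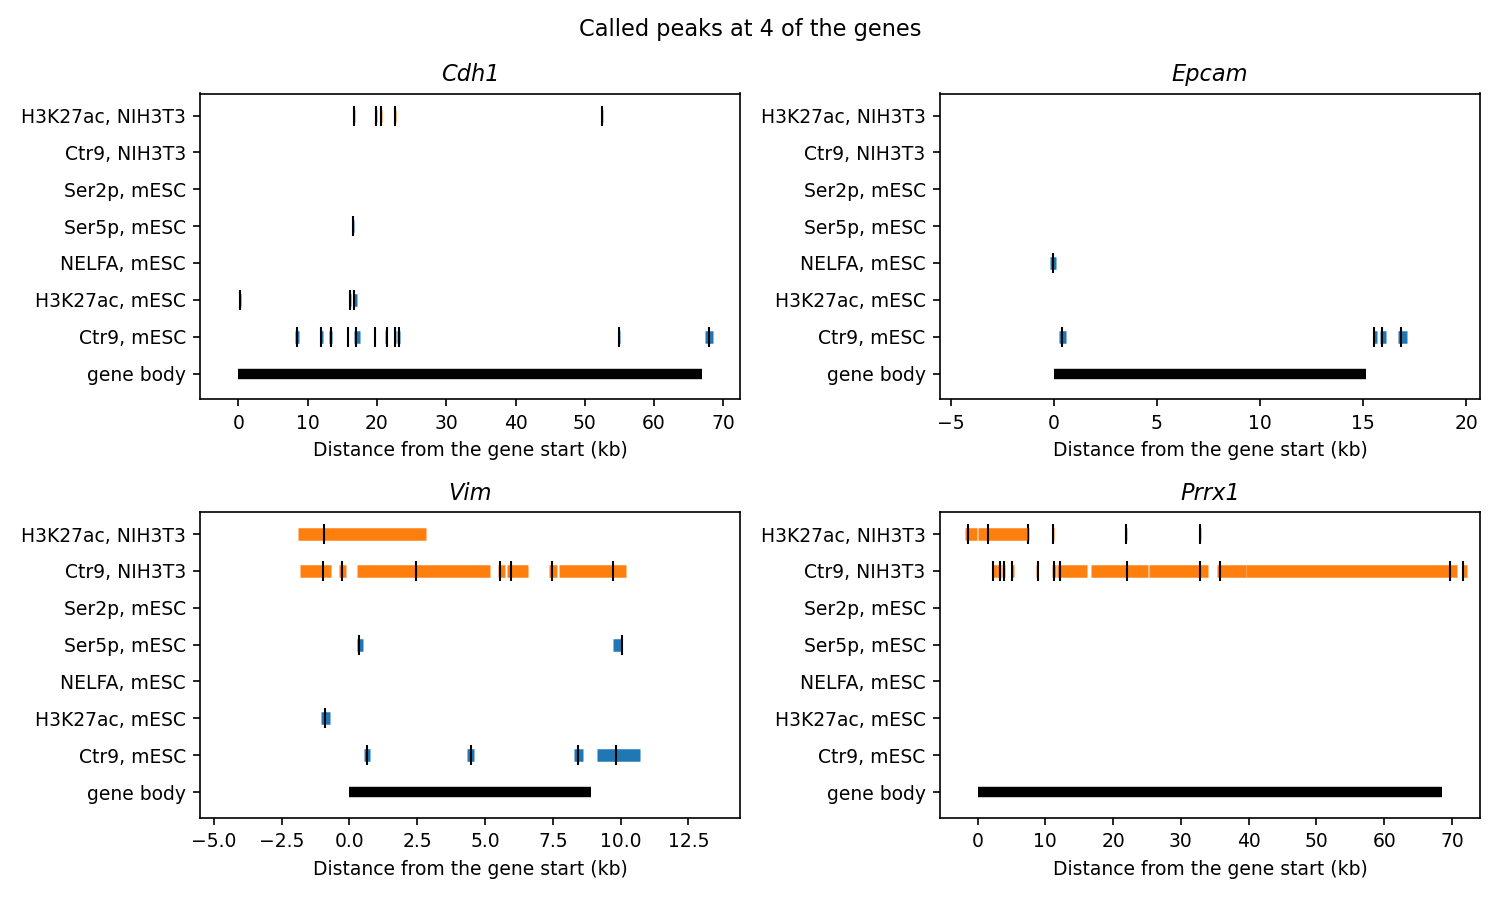
Called peaks at Cdh1, Epcam, Vim and Prrx1 as bars (mESC blue, NIH3T3 orange) with summits as vertical ticks, against the distance from the gene start in kb along the gene's direction. Prrx1 has no mESC peak and Ctr9 bars over 84.3% of its body in NIH3T3 cells, and Epcam has no NIH3T3 peak.

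Vim had peaks in both lines, which overlapped in part. Its mESC Ctr9 peaks numbered 4, the strongest 914 bps past the gene end (fold enrichment 11.6, 1.57 kb wide), and they covered 8.85% of the gene body. In NIH3T3 cells 7 Ctr9 peaks covered 82.7% of the body, the strongest with a fold enrichment of 17.4 and a width of 4.91 kb. All 4 mESC peaks overlapped Ctr9 peaks of NIH3T3 cells, and 2 of the 7 NIH3T3 peaks overlapped a Ctr9 peak of mESCs. With 82.7% of the body under NIH3T3 peaks, an overlap of mESC peaks inside the gene was nearly given in advance. The H3K27ac summits lay 908 bps before the start in mESCs and 941 bps before it in NIH3T3 cells, so nearly at the same base. The mESC peak was 0.321 kb wide with a fold enrichment of 2.81 (list median 3.97). The NIH3T3 peak was 4.71 kb wide with a fold enrichment of 23.5 (list median 6.75), rank 30 of 34241 peaks by width. Ser5p peaks of mESCs lay 340 bps after the start (3.69) and 1157 bps past the gene end (2.88). Vim thus had Ctr9 peaks within and past the gene in both lines, over more of its body in NIH3T3 cells. Among the 904 genes with at least 100 TPM in mESCs, the median share of the body covered was 24.3%, above the 8.85% of Vim. The part of mRNA level in the difference between the lines was not tested.

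Prrx1 had nothing in mESCs, where the nearest Ctr9 peak lay 68.9 kb and the nearest H3K27ac peak 89.4 kb away. In NIH3T3 cells it had 12 Ctr9 peaks, which covered 84.3% of the gene body. The widest measured 31.1 kb, rank 3 by width and rank 9 by fold enrichment (29.2) among 22016 peaks, and its summit lay 1133 bps past the gene end. Another 4 measured 4.28 to 8.73 kb, while the 7 others measured 0.326 to 0.789 kb. The strongest H3K27ac peak of the gene, 7.28 kb wide with its summit 1575 bps after the start, had a fold enrichment of 34.1 and rank 5 by width. A second one lay 1467 bps before the start (15.0). Of the 6 H3K27ac peaks, 4 overlapped Ctr9 peaks. With 84.3% of the body under Ctr9 peaks, such an overlap inside the gene was nearly given in advance. Among the 868 genes with 100 TPM or more in NIH3T3 cells, 21.2% had at least 75% of their body under Ctr9 peaks, as Vim and Prrx1 did, and the median share covered was 12.7%. The limit of 75% was chosen after the values of Vim and Prrx1 were seen.

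Of the other 6 mesenchymal genes, Zeb1 had a Ctr9 peak in both lines, mostly past its end. In mESCs the only one lay 1583 bps past the gene end (fold enrichment 3.54), and in NIH3T3 cells 3 of 4 lay 2333 to 4479 bps past it, up to a fold enrichment of 5.57, with the last in an intron at 88.7 kb. H3K27ac peaks lay near the start of Zeb1 in both lines. The summit was at 166 bps with a fold enrichment of 3.50 in mESCs (list median 3.97), and at 357 bps with 13.2 in NIH3T3 cells (list median 6.75). mESCs had a second, stronger H3K27ac peak 160.0 kb into the gene (5.28, 1.26 kb wide), where NIH3T3 cells had none. Zeb1, the mesenchymal factor with the highest mESC level, was also the only factor of the 6 with mESC peaks.

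Snai1, Snai2, Zeb2, Twist1 and Cdh2 had H3K27ac peaks in NIH3T3 cells but no Ctr9 peak there, at levels of 11 to 80.0 TPM. Among genes with at least 10 TPM in NIH3T3 cells, 39.8% had an H3K27ac peak without one. Distances to the nearest Ctr9 peak were 6.53 kb for Zeb2, 57.2 kb for Snai1, 215 kb for Snai2 and 976 kb for Twist1, so at Zeb2 it lay just outside the 5 kb flank. A peak that was not called does not show that Ctr9 was absent, since the depth of the library is unknown.

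At Snai1, 8 H3K27ac peaks covered 49.2% of the body, with the strongest past the gene, 996 bps after its end (fold enrichment 20.9, 1.06 kb wide). The peaks inside the gene had fold enrichments of 4.25 to 6.67. At Twist1, 4 peaks covered 77.0% of the short gene, the strongest 489 bps before (13.5) and 329 bps after the start (13.0). At Snai2, 3 weaker peaks lay between 552 bps before and 645 bps after the start, with fold enrichments of 4.51 to 6.23.

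At Zeb2 the strongest of 4 peaks (17.0, 1.03 kb wide) lay 7.36 kb after the outermost start. It was 42 bps from the start of Zeb2-217, an internal transcript with 0 counts in both lines. The peak over the outermost start had a fold enrichment of 5.17. At Cdh2, 3 of 6 peaks lay within 1.1 kb of the start (6.46 to 7.07), and the strongest lay in an intron at 68.5 kb (7.77). The strongest H3K27ac peak therefore lay within 1 kb of the outermost start for Vim, Snai2, Zeb1 and Twist1, and elsewhere for Cdh1, Cdh2, Snai1, Zeb2 and Prrx1.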

How the data were processed

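Samples were grouped by their labels into 7 ChIP-seq groups with a peak list and 2 RNA-seq groups, with 1 library each, and the 3 input libraries were not used here. The authors aligned ChIP-seq reads with bowtie2 (ver. 2.3.5.1) to mm10 and called peaks with macs2 (ver. 2.2.6) at a q-value cutoff of 0.01. Each peak has a deposited score (10 times its −log10 q, truncated), a deposited ratio of summit pileup to local background called fold enrichment, and deposited −log10 p and −log10 q values of its summit. The authors quantified RNA with kallisto (ver. 0.46.1) against GENCODE M19, and for every transcript the deposited tables give estimated counts and TPM. ChIP-seq depth is unknown, and the RNA-seq depth is 26400407 and 28849497 counts.

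The gene level was the TPM of the transcript of highest TPM, with a pseudocount of 1 for log2 differences. Since 1 library stood for each line, no test was made. Exact Poisson and exact conditional (Clopper-Pearson) intervals at 95% of the rounded estimated counts cover counting error only, and a count of 0 was set to a limit of 3 counts for a bound. Gene coordinates were those of GENCODE M21 (GRCm38), and a peak was assigned when it shared 1 bp or more with the gene body or 5000 bps on each side. Promoters were taken from RefSeq. Python 3.11.15, pandas 2.3.3, NumPy 2.4.6, SciPy 1.17.1 and Matplotlib 3.10.9 were used, and the code was tested on simulated data (8 of 8 checks passed).

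The genes named are the 10 members, the 5 genes of each further list with the largest difference in each direction among those at least 2-fold different, marker genes, and genes that overlap a member's window. A gene that this rule names in the mesenchymal list is not reported here. The members and the lists were chosen with earlier results of these data known. Alternatives changed the transcript summary, pseudocount, fold, filter, scaling, window, q limit and overlap rule.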

Additional observations from a re-analysis of the deposited data

How the results depend on the processing

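No paired analysis was possible because each group had 1 library, and for the same reason no replicate could be left out. The median log2 difference of the 8 mesenchymal genes was 4.16 with a pseudocount of 0.1 in place of 1, and the number of genes with a Ser5p peak in mESCs fell from 2 to 0 at a −log10 q of at least 5. The 8 and 2 genes called in each direction were the same numbers under every alternative run, and of 40 log2 differences of single genes 0 changed sign. The other epithelial genes higher in mESCs numbered 25 to 30 and the other mesenchymal genes higher in NIH3T3 cells 21 to 26. With a pseudocount of 0.1, the log2 difference went from -6.98 to -10.29 for Epcam, from -6.79 to -9.93 for Cdh1 and from 7.43 to 10.10 for Prrx1, and that of Prrx1 was 8.68 with all transcripts summed. With the gene body alone, mESC H3K27ac was found at 2 genes in place of 3. The only mESC Ctr9 peak of Zeb1 was lost with a 1 kb flank, with the gene body alone, and at a −log10 q of at least 5. With TPM scaled to a median ratio of 1, the median of the 8 mesenchymal genes was 3.42 and the differences of Cdh1 and Epcam stayed at -6.79 and -6.98. Precision is limited by 1 count for Cdh1 and 0 for Epcam in NIH3T3 cells, and by 8 to 89 counts for Prrx1, Snai2, Zeb2, Twist1 and Snai1 in mESCs.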
